A study of Oryctolagus cuniculus with 16 samples.

Results

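Heat shock proteins and their cochaperones were followed across 16 libraries of total RNA from rabbit tibiae, taken 10 days after surgery. The genes were chosen by symbol from the gene table: HSP90, HSPA, HSPB, HSPD1, HSPE1 and HSPH1, the DNAJA, DNAJB and DNAJC families, the CCT, prefoldin and BAG families, and the heat shock factors HSF1, HSF2 and HSF4. The choice held 73 of 29587 genes, and 59 of them passed the filter on low counts that left 11617 genes in the test. By the compartment of their proteins, 34 of the tested genes were cytosolic, 11 belonged to the endoplasmic reticulum (ER), 6 to mitochondria and 5 to other places or none that was assigned, and 3 were heat shock factors.

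Each of 4 rabbits carried 4 drilled sites, one of each kind. The sites were a turned copper implant (Turned Cu), a titanium implant that had been sandblasted with large grit and acid-etched (SLA Ti), an implant of pure titanium with a turned surface (Turned Ti) and a site labelled Sham, which gives 4 animals per group. The labels give no strain, age or genotype of the rabbits. Implants were taken out, the wall of the hole was scraped with a curette, and the RNA is that of a mixture of cells. A number after a group name below is the rabbit.

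Heat shock proteins are chaperones, which bind unfolded proteins and help them to fold or keep them from clumping. HSP70 proteins (the HSPA family) work with J-domain partners (DNAJ), which bring clients, and with nucleotide exchange factors such as HSPH1 and the BAG proteins, while HSP90 matures kinases and receptors and the ring-shaped CCT complex folds actin and tubulin. Cytosolic chaperones are switched on by HSF1 when proteins misfold, ER chaperones by the unfolded protein response, and the mitochondrial matrix has an HSP70 and a chaperonin of its own.

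Libraries differed in ways that bear on these genes. Coding genes of the nuclear genome drew from 988967 to 1893841 counts in Turned Cu, from 1730553 to 3765315 in SLA Ti, from 1494340 to 3960681 in Turned Ti and from 965804 to 3251099 in Sham. Ribosomal RNA took 65.3% of the counts in Sham 2, 49.6% in Turned Ti 4 and 44.8% in SLA Ti 4. The factors that scaled the libraries (TMM) ran from 0.251 in Turned Cu 2 to 2.91 in Turned Ti 1. Levels compared below in scaled counts depend on these factors. Transcripts of the mitochondrial genome made up 74.1% and 65.5% of the other counts in Turned Cu 2 and Turned Cu 4, both from proximal holes, but 33.8% and 19.7% in Turned Cu 1 and Turned Cu 3, both from distal holes. Where leaving out one of these copper pairs ended a call of these chaperone genes, the value without it is given. Calls of partner genes and cell markers, given further below, were not examined with libraries left out.

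Turned Cu sites had more of several stress-responsive chaperones than any other site. In Turned Cu against Sham, 16 of the 59 tested genes rose and 3 fell, by edgeR's quasi-likelihood test at an adjusted p of 0.05. The list did not stand out by number: 32.2% of it passed in either direction, against 42.8% of all genes tested. Much of the transcriptome thus differed between Turned Cu and Sham. The share that rose was 27.1%, near the 23.2% of all genes, and the share that fell was 5.08%, against 19.6% of all genes. The median log2 fold change of the tested members was 0.27, against -0.06 over all genes tested. Against Turned Ti, 17 rose and 2 fell, with backgrounds of 21.1% and 19.6% (40.7% in either direction), and the median was 0.29 against -0.10 over all genes. Against SLA Ti, 13 rose and 2 fell, with backgrounds of 15.3% and 15.7% (31% in either direction), and the median was 0.58 against -0.02. These medians moved with single libraries: against Sham from -0.01 without Turned Cu 4 to 0.36 without Sham 2, and against SLA Ti from 0.25 without Turned Cu 2 to 0.54 without Turned Cu 1. Against Turned Ti the member median was -0.05 without Turned Cu 2 and -0.01 without Turned Ti 4, but 0.50 without Turned Ti 3. Without the proximal copper pair it was -0.21 against Sham, -0.28 against Turned Ti and 0.0022 against SLA Ti. The medians over all genes in these settings were -0.34 to -0.07. These 3 comparisons share the Turned Cu libraries.

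**Figure D1:**
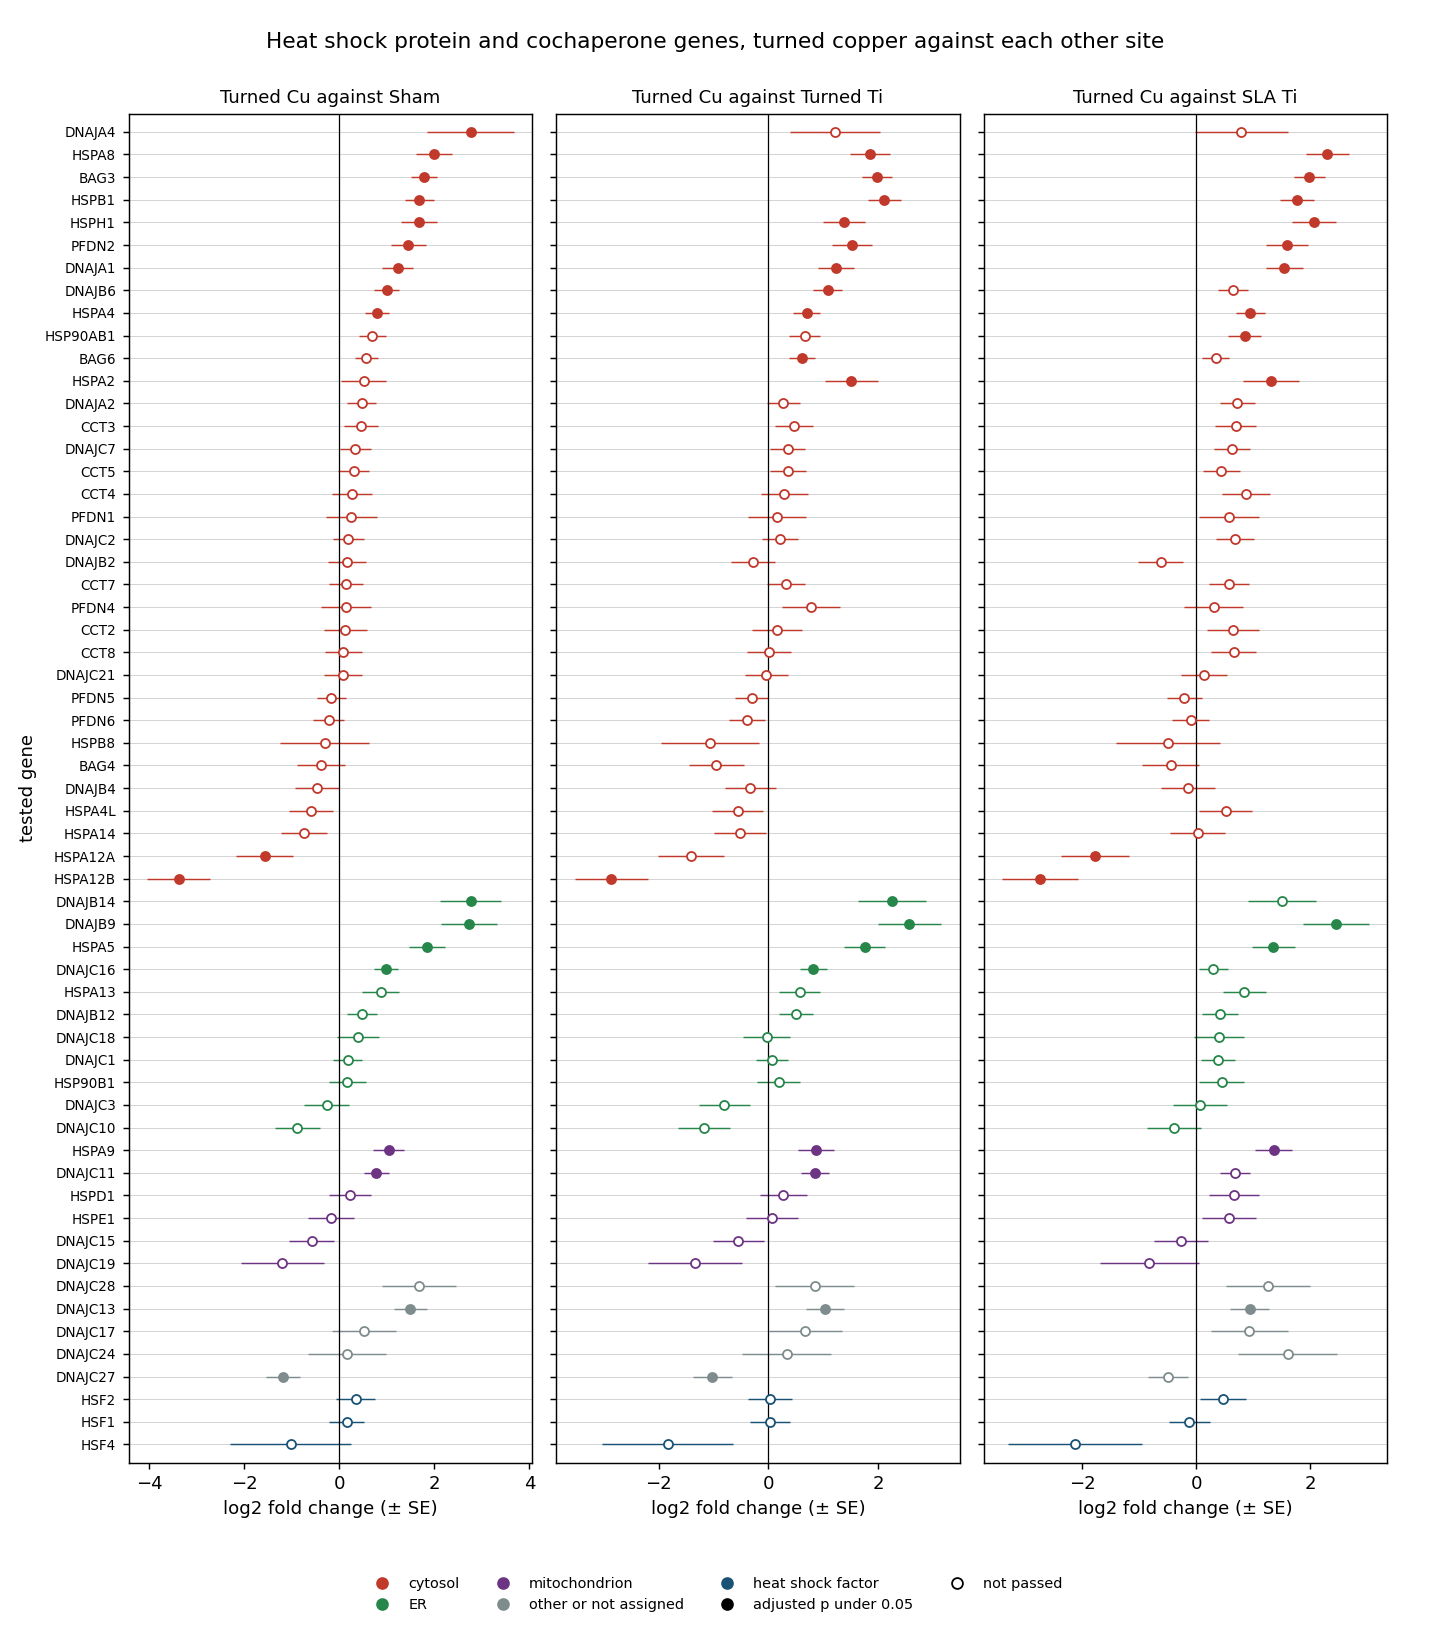
Log2 fold change ± SE (x axis) of each of the 59 tested genes (y axis, grouped by compartment and ordered by the first panel) in Turned Cu against Sham, Turned Ti and SLA Ti, from 4 libraries per group. Filled points passed an adjusted p of 0.05; HSPA8, BAG3 and HSPB1 lie near 2 in all 3 panels, while the CCT subunits and HSF1 lie closer to 0 with open points.

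Among the cytosolic chaperones HSPA8 was the most abundant. It is the constitutive HSP70 and lies on chromosome 1 from 94912409 to 95035086 in the coordinates of the gene table, for which no genome build is named in the sources used. By the deposited RPKM, a level per transcript length and library size, HSPA8 ranked first of the members in every group, at 320.2 ± 237.7 in Turned Cu, 196.6 ± 71.0 in SLA Ti, 269.1 ± 214.0 in Turned Ti and 153.6 ± 105.0 in Sham (SD, n = 4). In CPM, counts scaled to a common library size, HSPA8 stood at 909, 1216, 1468 and 1119 in Turned Cu 1 to 4, against 147, 243, 280 and 285 in SLA Ti, 384, 209, 448 and 261 in Turned Ti and 217, 236, 360 and 374 in Sham. Each copper library lay above each of the other 12. HSPA8 rose by 1.99 ± 0.37 (log2, SE) in Turned Cu against Sham (edgeR adjusted p = 0.000408), by 1.86 ± 0.37 against Turned Ti (adjusted p = 0.000806) and by 2.30 ± 0.38 against SLA Ti (adjusted p = 0.000464). In tissue such as this, more RNA of a gene per cell and more cells of a type that uses it cannot be told apart.

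HSPB1, the small heat shock protein HSP27, and BAG3, a cochaperone that links HSP70 to small heat shock proteins and autophagy, showed the same separation. HSPB1 (chromosome 6, 26753104 to 26754383) stood at 44.9, 46.6, 54.7 and 54.9 CPM in Turned Cu, against 18.2, 12.0, 8.84 and 20.0 in SLA Ti, 12.9, 13.9, 11.3 and 8.37 in Turned Ti and 19.2, 9.96, 14.1 and 19.1 in Sham. BAG3 (chromosome 18, 66803881 to 66828672) stood at 39.9, 26.3, 40.9 and 38.6 CPM in Turned Cu, against 8.71, 10.0, 7.20 and 11.0 in SLA Ti, 7.24, 11.1, 8.32 and 10.2 in Turned Ti and 10.7, 6.19, 12.7 and 12.8 in Sham. For both genes the lowest copper library was above the highest of the other libraries. HSPB1 rose by 1.69 ± 0.30 against Sham (edgeR adjusted p = 0.000275), by 2.11 ± 0.30 against Turned Ti and by 1.77 ± 0.30 against SLA Ti. BAG3 rose by 1.78 ± 0.27 against Sham (edgeR adjusted p = 9.21e-05), by 1.99 ± 0.27 against Turned Ti and by 1.98 ± 0.27 against SLA Ti. HSPB8, the small heat shock protein that partners BAG3, was at 0 to 1.53 CPM in Turned Cu and 0.281 to 1.71 CPM in Sham, and its log2 fold change of -0.31 ± 0.94 did not pass.

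**Figure D2:**
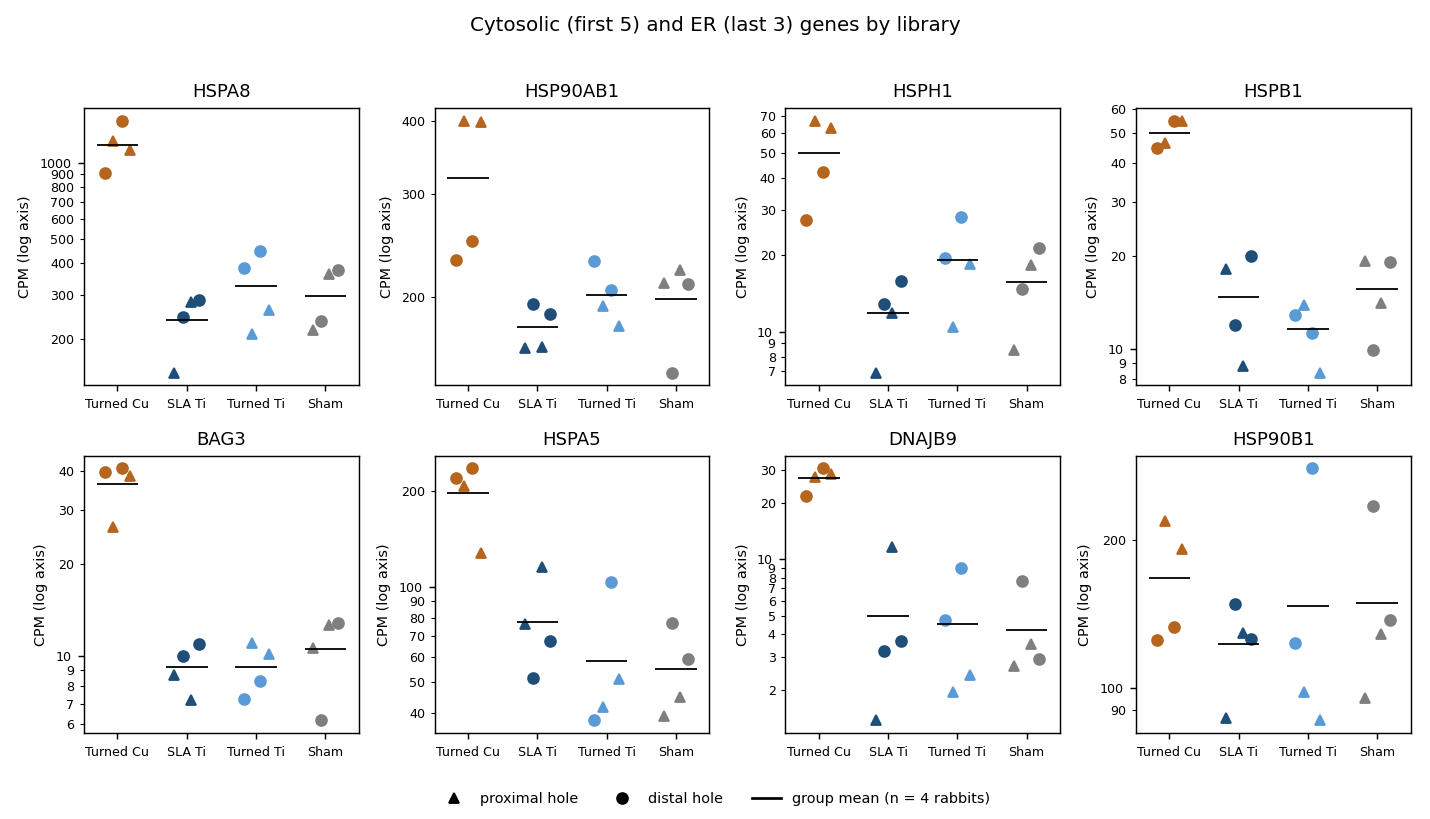
CPM per library (y axis, log scale, own range in each panel) of 5 cytosolic genes (HSPA8, HSP90AB1, HSPH1, HSPB1, BAG3) and 3 ER genes (HSPA5, DNAJB9, HSP90B1) in Turned Cu, SLA Ti, Turned Ti and Sham (x axis). Points are libraries, triangles proximal and circles distal holes, and the bar is the mean of 4; the 4 Turned Cu points of HSPA8, HSPB1, BAG3, HSPA5 and DNAJB9 lie above every other point, and those of HSP90B1 do not.

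HSPH1, the HSP110 exchange factor of HSP70, stood at 27.4, 66.9, 42.3 and 62.8 CPM in Turned Cu, against 6.91, 12.8, 11.8 and 15.8 in SLA Ti, 19.5, 10.5, 28.1 and 18.4 in Turned Ti and 8.46, 14.7, 18.2 and 21.2 in Sham. The proximal copper libraries, Turned Cu 2 and 4, were the highest, and Turned Cu 1 fell below Turned Ti 3. HSPH1 rose by 1.67 ± 0.38 against Sham (edgeR adjusted p = 0.00197), by 1.38 ± 0.38 against Turned Ti and by 2.07 ± 0.39 against SLA Ti. Without the proximal copper pair the rise against Turned Ti was 0.83 and did not pass. DNAJA1, a J-domain partner of HSPA8 in the cytosol, stood at 27.3, 45.9, 21.8 and 46.1 CPM in Turned Cu, against 18.2, 13.3, 16.2 and 12.3 in Sham. DNAJA1 rose by 1.23 ± 0.32 against Sham (edgeR adjusted p = 0.00533), by 1.24 ± 0.32 against Turned Ti and by 1.54 ± 0.32 against SLA Ti. Without the proximal pair it no longer passed against Sham, at 0.64, or against Turned Ti, at 0.67.

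Of the other cytosolic genes, PFDN2, a subunit of the prefoldin complex that hands clients to CCT, rose by 1.45 ± 0.37 against Sham, with 5.88, 11.7, 2.93 and 6.89 CPM in Turned Cu against 2.38, 2.02, 2.63 and 2.81 in Sham (edgeR adjusted p = 0.00443). The prefoldin subunits PFDN1, PFDN4, PFDN5 and PFDN6 did not pass in any copper comparison, and PFDN2 did not pass against any group without the proximal pair, at 0.75 against Sham, 0.85 against Turned Ti and 0.87 against SLA Ti. DNAJB6, a J-domain protein that keeps polyglutamine proteins soluble, rose by 0.99 ± 0.26 against Sham and 1.08 ± 0.26 against Turned Ti. It did not pass against either without the distal pair, at 0.59 against Sham and 0.69 against Turned Ti. HSPA4, an exchange factor of the HSP110 type, stood at 32.0, 59.3, 33.0 and 44.8 CPM in Turned Cu, against 19.1, 29.5, 27.0 and 22.5 in Sham. HSPA4 rose by 0.79 ± 0.25 against Sham (edgeR adjusted p = 0.0191), but this did not pass under 9 of 18 other settings, 6 of which left out 1 library. Its value was 0.45, 0.64 or 0.58 without Turned Cu 2, 3 or 4, and 0.48, 0.61 or 0.54 without Sham 1, 3 or 4. Without the proximal copper pair it was 0.34 against Sham and did not pass. HSPA4 also rose by 0.94 against SLA Ti (edgeR adjusted p = 0.0105), a call that 3 of 18 other settings ended. One of these left out the proximal pair, at 0.50. Against Turned Ti it rose by 0.70 (edgeR adjusted p = 0.036), a call that 16 of 18 other settings ended. Leaving out the distal pair, at 0.71, or the proximal pair, at 0.27, was among them.

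DNAJA4, another cytosolic partner of HSP70, rose by 2.76 ± 0.91 against Sham (edgeR adjusted p = 0.0211), with 4.31, 1.76, 5.98 and 4.48 CPM in Turned Cu against 0.179, 1.21, 0.612 and 0.603 in Sham. Its levels in titanium sites reached 4.64 CPM in Turned Ti 4 and 4.14 CPM in SLA Ti 1, so it did not separate copper from titanium. Leaving out any of 5 single libraries ended the call against Sham, among them Turned Cu 1, at 2.59, Turned Cu 3, at 2.32, Sham 1, at 2.29, and Sham 3 and Sham 4, both at 2.61, as did leaving out the distal pair, at 2.06. HSPA2, an HSP70 best known from the testis, stood at 9.04, 5.07, 19.9 and 9.98 CPM in Turned Cu, against 5.76, 5.86, 1.90 and 4.19 in SLA Ti, 1.20, 4.08, 6.88 and 3.23 in Turned Ti and 10.1, 5.92, 8.39 and 6.55 in Sham. It rose against Turned Ti by 1.52 ± 0.49 and against SLA Ti by 1.31 ± 0.48, and overlapped Sham. Without Turned Cu 3, its highest library, it was 0.88 against Turned Ti and 0.67 against SLA Ti and passed against neither, and the same held without the distal pair, at 0.70 and 0.49. It also did not pass against Turned Ti without Turned Ti 1, at 1.11, or Turned Ti 4, at 1.36, and 15 of 18 other settings ended the call against SLA Ti, the rabbit as a block among them (1.16). BAG6, a chaperone of tail-anchored proteins, rose by 0.62 ± 0.24 against Turned Ti (edgeR adjusted p = 0.0486), a call that 16 of 18 other settings ended, leaving out any copper library or Turned Ti 1, 3 or 4 among them (0.30 to 0.57), the rabbit as a block (0.60), and leaving out the distal (0.23) or the proximal pair (0.65). Of the remaining cytosolic genes, DNAJA2 and DNAJC7, partners of HSP70, DNAJC2, a ribosome-bound J protein, and BAG4, DNAJB2, DNAJB4, DNAJC21, HSPA4L and HSPA14 did not pass in any copper comparison.

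HSP90AB1, the constitutive cytosolic HSP90, stood at 232, 401, 250 and 399 CPM in Turned Cu, against 164, 195, 165 and 187 in SLA Ti, 231, 193, 206 and 179 in Turned Ti and 212, 149, 222 and 211 in Sham. In scaled CPM the proximal copper libraries were far above the rest and the distal ones barely so. By the deposited RPKM, HSP90AB1 averaged 69.1 in Turned Cu, below 145.5 in SLA Ti, 151.6 in Turned Ti and 95.2 in Sham. Its log2 fold change was 0.69 ± 0.29 against Sham (edgeR adjusted p = 0.061) and 0.66 ± 0.29 against Turned Ti (adjusted p = 0.0725), which did not pass. Against SLA Ti it rose by 0.85 ± 0.29 (adjusted p = 0.0327), a call that 16 of 18 other settings ended, leaving out any 1 of the 8 libraries compared among them (0.56 to 0.80), the rabbit as a block (0.84) and leaving out the proximal pair (0.37).

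HSP90AA1, the stress-inducible cytosolic HSP90, is not among the 73 genes because its entry in the gene table carries no symbol, and was identified by its full name in the description. It stood at 1087, 821, 1108 and 1126 CPM in Turned Cu, against 171, 126, 122 and 181 in SLA Ti, 112, 130, 189 and 175 in Turned Ti and 160.2, 124, 205 and 178 in Sham. HSP90AA1 rose by 2.63 ± 0.33 against Sham (edgeR adjusted p = 2.36e-05), by 2.77 ± 0.33 against Turned Ti and by 2.79 ± 0.33 against SLA Ti. Within a library, the log2 ratio of HSP90AA1 to HSP90AB1 counts averaged 1.73 ± 0.57 in Turned Cu, against -0.26 ± 0.33 in SLA Ti, -0.44 ± 0.46 in Turned Ti and -0.26 ± 0.12 in Sham (SD, n = 4). The ratio was higher in copper by 1.98 against Sham, 2.17 against Turned Ti and 1.99 against SLA Ti, in 4 of 4 rabbits each time. Each difference had p = 0.0286 by a two-sided exact permutation test, the smallest that 4 against 4 libraries can give, and an adjusted p of 0.0857 over the 15 ratio tests made. Library scaling does not enter this ratio. The plan allowed a ratio only where both genes carried a symbol, so this one was added after the data were seen.

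HSPA1L, a cytosolic HSP70, was removed by the filter on low counts, but its few reads lay almost wholly in copper. Turned Cu 1 to 4 had 33, 5, 26 and 18 counts, against 0 in every SLA Ti and Turned Ti library and 1, 0, 0 and 0 counts in Sham. Taking 3 counts in a whole group as the limit of detection, HSPA1L was at least 94.5-fold higher in Turned Cu than in SLA Ti and at least 96.8-fold higher than in Turned Ti. Against the 1 count in Sham the ratio was 208.3, with an exact 95% interval of 36.4 to 8326 that covers counting error only. HSPA1L is closely related in sequence to the stress-inducible HSPA1A and HSPA1B, which were not analysed here. No sequences were compared, and the sources used do not say how reads shared by such relatives were counted, so its identity is uncertain. The other 13 untested members had at most 68 counts over all 16 libraries, and DNAJB7 and DNAJB8 had none.

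In the ER, HSPA5 (BiP, the HSP70 of the ER lumen) was higher in scaled CPM in Turned Cu than at every other site. So was DNAJB9 (ERdj4, a J protein that helps BiP hold the stress sensor IRE1 in check and clear misfolded proteins). HSPA5 stood at 220.5, 208, 236 and 128 CPM in Turned Cu, against 76.3, 51.6, 115 and 67.4 in SLA Ti, 38.0, 41.8, 103 and 51.3 in Turned Ti and 39.3, 76.8, 44.9 and 59.4 in Sham. In CPM each copper library was above all others, with Turned Cu 4 closest to the highest titanium ones, SLA Ti 3 and Turned Ti 3, both from rabbit 3. By the deposited RPKM, HSPA5 averaged 62.9 in Turned Cu, against 76.2 in SLA Ti, 48.2 in Turned Ti and 28.7 in Sham. HSPA5 rose by 1.85 ± 0.38 against Sham (edgeR adjusted p = 0.000923), by 1.76 ± 0.38 against Turned Ti (adjusted p = 0.00152) and by 1.35 ± 0.38 against SLA Ti (adjusted p = 0.0125). Without the distal copper pair, Turned Cu 1 and 3, HSPA5 was 1.29 against Sham, which passed, 1.23 against Turned Ti (adjusted p = 0.0539) and 0.81 against SLA Ti, which did not. Against SLA Ti, 7 of 18 other settings ended the call, 4 of them by leaving out 1 library: Turned Cu 1, Turned Cu 3, SLA Ti 2 or SLA Ti 4.

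DNAJB9 (chromosome 7, 45170333 to 45175078) stood at 21.8, 27.5, 30.7 and 28.7 CPM in Turned Cu, against 1.38, 3.26, 11.6 and 3.66 in SLA Ti, 4.72, 1.97, 8.96 and 2.40 in Turned Ti and 2.68, 7.67, 3.55 and 2.93 in Sham. The copper libraries were tightly grouped and all others were lower. DNAJB9 rose by 2.72 ± 0.59 against Sham (edgeR adjusted p = 0.00132), by 2.58 ± 0.58 against Turned Ti and by 2.45 ± 0.58 against SLA Ti. DNAJB14, a J protein of the ER membrane, stood at 16.5, 13.3, 13.5 and 15.0 CPM in Turned Cu, against 1.80, 2.01, 15.3 and 1.37 in SLA Ti, 4.27, 1.57, 3.55 and 2.65 in Turned Ti and 2.38, 3.23, 1.65 and 1.49 in Sham. SLA Ti 3 stood at the copper level and the other libraries far below it. DNAJB14 rose by 2.76 ± 0.64 against Sham (edgeR adjusted p = 0.00224) and by 2.26 ± 0.62 against Turned Ti, where it did not pass without the distal pair, at 1.94 (adjusted p = 0.0762), while 1.51 ± 0.60 against SLA Ti did not pass, although with the rabbit as a block it was 1.98 and passed (edgeR adjusted p = 0.0212). DNAJC16, another ER J protein, rose by 0.97 ± 0.25 against Sham and by 0.82 ± 0.25 against Turned Ti, and did not pass against SLA Ti. The call against Sham was lost without Sham 3, at 0.73, and that against Turned Ti without Turned Cu 1, at 0.57, Turned Cu 3, at 0.67, or Turned Ti 1, at 0.71. Without the distal pair DNAJC16 passed against neither, at 0.64 against Sham and 0.51 against Turned Ti.

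The remaining 7 ER genes did not pass in any copper comparison. HSP90B1 (GRP94, the HSP90 of the ER, which folds integrins and Toll-like receptors) stood at 125, 219, 133 and 192 CPM in Turned Cu, against 86.8, 148, 129.5 and 126 in SLA Ti, 123, 98.0, 280.0 and 85.9 in Turned Ti and 95.2, 234, 129 and 137 in Sham. Its copper libraries lay inside the range of the other groups, and its log2 fold change was 0.17 ± 0.40 against Sham, 0.19 ± 0.40 against Turned Ti and 0.45 ± 0.40 against SLA Ti. The reductase DNAJC10 (ERdj5) stood at -0.88 ± 0.47 against Sham and the BiP partner DNAJC3 (p58IPK) at -0.27 ± 0.47, without passing. HSPA13, DNAJB12, DNAJC1 and DNAJC18 had values between 0.17 and 0.87 against Sham.

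Of the 6 tested mitochondrial genes, HSPA9 (mortalin, the HSP70 of the matrix) rose in all 3 copper comparisons, and DNAJC11, a J protein of the mitochondrial membranes, rose against Sham and Turned Ti. HSPA9 (chromosome 3, 20812819 to 20831385) stood at 24.5, 57.0, 25.0 and 49.7 CPM in Turned Cu, against 11.1, 20.5, 13.8 and 15.2 in SLA Ti, 26.4, 19.0, 26.7 and 13.1 in Turned Ti and 17.3, 21.0, 20.6 and 17.0 in Sham. The proximal copper libraries were above all others, and the distal ones overlapped Turned Ti. HSPA9 rose by 1.04 ± 0.32 against Sham (edgeR adjusted p = 0.0152), by 0.87 ± 0.32 against Turned Ti (adjusted p = 0.0385) and by 1.36 ± 0.33 against SLA Ti (adjusted p = 0.00527). Without the proximal pair it was 0.31 against Sham, 0.17 against Turned Ti and 0.63 against SLA Ti, and passed in none. Leaving out 1 library ended the call against Sham for Turned Cu 2, at 0.66, Turned Cu 4, at 0.71, Sham 1, at 0.78, Sham 3, at 0.85, and Sham 4, at 0.77, and 14 of 18 other settings ended that against Turned Ti, the rabbit as a block among them (0.81). DNAJC11 rose by 0.78 ± 0.26 against Sham and 0.86 ± 0.26 against Turned Ti, and without the proximal pair was 0.35 and 0.45. Against Sham it did not pass under 11 of 18 other settings, among them without Turned Cu 2, 3 or 4 (0.59, 0.62 and 0.45) or Sham 1 or 3 (0.42 and 0.56), and against Turned Ti it did not pass without Turned Cu 4, at 0.56, Turned Ti 1, at 0.64, or Turned Ti 4, at 0.68.

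HSPD1 and HSPE1, the HSP60 and HSP10 parts of the mitochondrial chaperonin, lie head to head on chromosome 7, HSPD1 from 137982897 to 137993929 on the minus strand and HSPE1 from 137994346 to 137996420 on the plus strand. HSPD1 stood at 8.04, 45.9, 12.9 and 40.6 CPM in Turned Cu, against 11.6, 19.4, 17.9 and 18.7 in SLA Ti, 18.2, 18.6, 33.2 and 18.4 in Turned Ti and 15.8, 25.8, 27.2 and 22.9 in Sham. HSPE1 stood at 1.72, 7.22, 2.29 and 11.5 CPM in Turned Cu, against 2.03, 4.61, 4.57 and 3.89 in SLA Ti, 4.82, 3.74, 8.32 and 4.48 in Turned Ti and 5.18, 6.86, 8.02 and 5.43 in Sham. In both genes the 2 distal copper libraries were below every Sham library, and the proximal ones were above most or all of them. Neither passed in any copper comparison, with log2 fold changes of 0.22 ± 0.43 for HSPD1 and -0.18 ± 0.48 for HSPE1 against Sham. DNAJC15 and DNAJC19, J proteins of the matrix import motor, stood at -0.59 ± 0.47 and -1.20 ± 0.87 against Sham and did not pass.

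The CCT chaperonin was also higher in the proximal than in the distal copper libraries. CCT2 (chromosome 4, 48625377 to 48643702) stood at 7.75, 35.9, 6.75 and 34.1 CPM in Turned Cu, against 8.71, 16.4, 15.4 and 13.0 in SLA Ti, 24.2, 15.3, 23.3 and 12.1 in Turned Ti and 17.4, 16.3, 25.3 and 18.2 in Sham. CCT5 stood at 14.5, 49.2, 23.4 and 38.6 CPM in Turned Cu, against 23.2, 22.3, 32.4 and 24.1 in Sham. CCT4 stood at 9.19, 31.4, 8.28 and 31.2 CPM in Turned Cu, against 11.9, 19.0, 22.5 and 13.1 in Sham. In all 6 tested subunits (CCT2, CCT3, CCT4, CCT5, CCT7 and CCT8) both proximal copper libraries were above both distal ones, by 2.31-fold in CCT5 to 4.83-fold in CCT2 between the pair means. None of the 6 passed in any copper comparison, and their log2 fold changes against Sham were 0.08 to 0.45. With 2 copper libraries on each side the split is a description with no test.

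**Figure D3:**
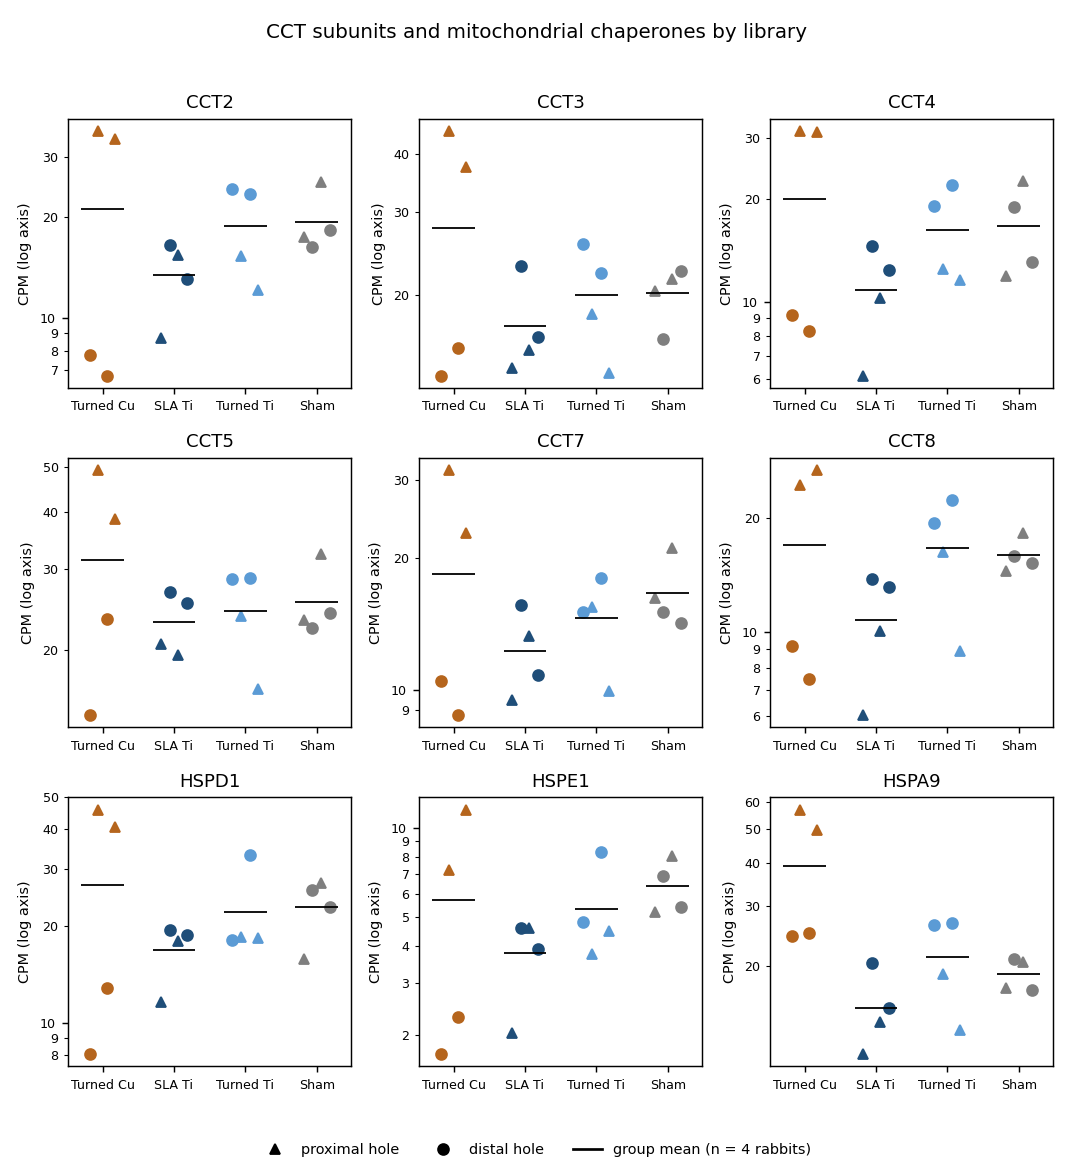
CPM per library (y axis, log scale, own range in each panel) of 6 CCT subunits and of HSPD1, HSPE1 and HSPA9 in Turned Cu, SLA Ti, Turned Ti and Sham (x axis). Points are libraries, triangles proximal and circles distal holes, and the bar is the mean of 4; in Turned Cu both triangles lie above both circles in all 9 panels, as with CCT2 at 35.9 and 34.1 against 7.75 and 6.75 CPM.

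Over all 59 tested members, 27 (45.8%) had both proximal copper libraries above both distal ones and 3 (5.08%) had both below, against 28.4% and 23.7% of all genes tested. By compartment the proximal libraries were above in 6 of 6 mitochondrial genes, 17 of 34 cytosolic genes and 3 of 11 ER genes. The median log2 ratio of the pair means was 1.32 in mitochondrial, 1.52 in CCT, 0.69 in all cytosolic and 0.10 in ER genes, against 0.02 over all genes tested. The order differed at the other sites. Both proximal libraries were below both distal ones for 4 of 6 CCT subunits in SLA Ti, where 15.7% of all genes were, and for 5 of 6 in Turned Ti, where 28% were. In Sham both were above for 1 of 6, as for 17.3% of all genes. Within copper, the proximal end, rabbits 2 and 4, the high share of mitochondrial transcripts and fewer coding counts (1066813 and 988967, against 1535958 and 1893841 in the distal pair) fall on the same libraries and cannot be told apart. Without the proximal pair, 12 of 60 tested members rose and 11 fell in Turned Cu against Sham, when 20.8% of all genes rose and 24% fell, and CCT2 was -1.48, HSPD1 -1.20, CCT8 -1.00 and CCT7 -0.86. Without the distal pair, 12 of 60 rose and 2 fell against Sham, when 12.9% of all genes rose and 17% fell, and against Turned Ti 9 rose and 2 fell, when 10.6% rose and 15.9% fell.

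Compared by compartment, 9 of 34 cytosolic, 4 of 11 ER and 2 of 6 mitochondrial genes rose in Turned Cu against Sham. Against Turned Ti the numbers were 10, 4 and 2, and against SLA Ti 9, 2 and 1. Of all genes tested, 23.2%, 21.1% and 15.3% rose in these comparisons. Summed over its genes, the cytosolic group stood at 1524, 2238, 2107 and 2104 CPM in Turned Cu, against 553 to 757 in SLA Ti, 679 to 998 in Turned Ti and 659 to 930.1 in Sham. The ER group stood at 426, 506, 449.6 and 421 CPM in Turned Cu, against 197 to 313 in SLA Ti, 177 to 467 in Turned Ti and 174 to 380.2 in Sham. The mitochondrial group stood at 44.5, 127, 49.8 and 120.3 CPM in Turned Cu, against 33.8 to 55.4 in SLA Ti, 44.5 to 78.7 in Turned Ti and 46.1 to 65.8 in Sham. In scaled CPM, copper libraries were thus above all others for the cytosolic sum, above all but Turned Ti 3 for the ER sum, and above all others only in the proximal pair for the mitochondrial sum. As a share of nuclear coding counts the order differed. The cytosolic share in Turned Cu 1 was 0.691%, below Sham 3 (0.756%), Turned Ti 1 (0.735%) and Turned Ti 3 (0.708%). The ER share was 0.193%, 0.262%, 0.186% and 0.229% in Turned Cu 1 to 4, below Sham 2 (0.293%) and Turned Ti 3 (0.331%). The mitochondrial share was 0.0202% in Turned Cu 1 and 0.0206% in Turned Cu 3, below every library without copper, the lowest being SLA Ti 3 (0.0264%). In Turned Cu 2 and 4 it was 0.0658% and 0.0655%, above every library without copper, the highest being Turned Ti 3 (0.0558%). HSPA8 made up most of the cytosolic sum in each copper library and in none of the other libraries.

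Ratios of related genes within a library set the compartments against each other without any scaling. The log2 ratio of HSPA9 to HSPA8, mitochondrial over cytosolic HSP70, averaged -5.00 ± 0.69 in Turned Cu, against -3.96 ± 0.38 in SLA Ti, -3.93 ± 0.36 in Turned Ti and -3.93 ± 0.44 in Sham (SD, n = 4). It was lower in copper in 4 of 4 rabbits in each comparison, by -1.07 against Sham (exact permutation p = 0.0571), -1.07 against Turned Ti (p = 0.0286) and -1.03 against SLA Ti (p = 0.0286), with adjusted values of 0.143, 0.0857 and 0.0857 by the same exact permutation test. The log2 ratio of HSPA5 to HSPA8, ER over cytosolic HSP70, averaged -2.59 ± 0.45 in Turned Cu, against -1.64 ± 0.62 in SLA Ti, -2.53 ± 0.55 in Turned Ti and -2.43 ± 0.59 in Sham. It differed in copper by -0.15 from Sham, -0.06 from Turned Ti and -0.95 from SLA Ti (exact permutation p = 0.657, 0.829 and 0.0857). The ratio of HSP90B1 to HSP90AB1 differed by -0.46, -0.31 and -0.37 and that of HSPD1 to CCT2, mitochondrial over cytosolic chaperonin, by 0.16, 0.15 and 0.05 from Sham, Turned Ti and SLA Ti. None of the 15 ratio tests passed adjustment, with 0.0857 the lowest adjusted p.

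**Figure D4:**
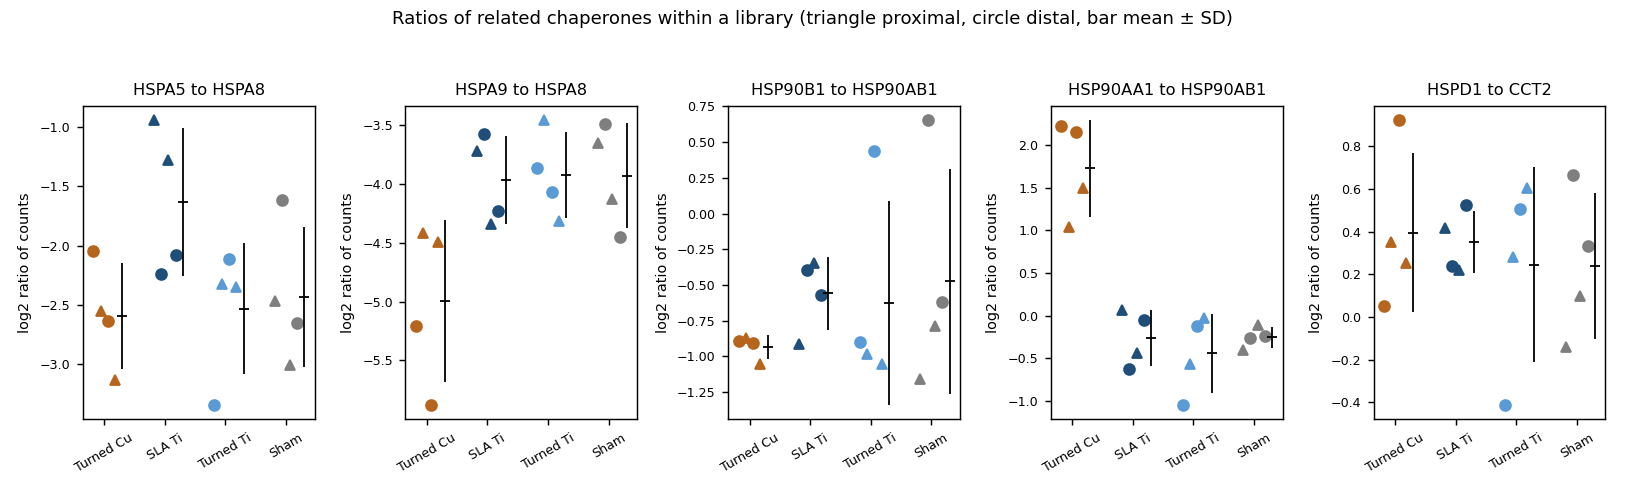
Log2 ratio of counts of related genes within each library (y axis) for 5 pairs of genes in Turned Cu, SLA Ti, Turned Ti and Sham (x axis). Triangles are proximal and circles distal holes, and the black mark is the mean ± SD of 4; HSP90AA1 to HSP90AB1 averages 1.73 in Turned Cu and lies near or below 0 elsewhere, and HSPA9 to HSPA8 averages -5.00 in Turned Cu, against -3.93 in Sham.

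The heat shock factors did not pass in any comparison. HSF1, the main switch of the heat shock response, stood at 5.60, 4.29, 5.47 and 10.2 CPM in Turned Cu, against 7.52, 7.83, 5.40 and 6.93 in SLA Ti, 5.21, 9.45, 3.59 and 6.72 in Turned Ti and 6.38, 2.42, 6.61 and 7.20 in Sham. HSF1 differed by 0.16 ± 0.37 (log2) in Turned Cu against Sham, by 0.04 ± 0.37 against Turned Ti and by -0.12 ± 0.37 against SLA Ti. HSF1 is known to be activated at the protein level, which RNA does not measure. HSF2 and HSF4 stood at 0.35 ± 0.41 and -1.02 ± 1.27 against Sham.

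HSPA12B, a distant HSP70 relative known from endothelial cells, was the member that fell most. It stood at 0, 0, 0.382 and 0.861 CPM in Turned Cu, against 2.07, 2.89, 1.34 and 2.13 in SLA Ti, 1.94, 3.54, 2.15 and 1.58 in Turned Ti and 3.87, 2.02, 2.14 and 5.07 in Sham. All copper libraries were below all others. The counts in Turned Cu 1 to 4 were 0, 0, 3 and 5, so the size of the fall rests on few reads. HSPA12B fell by 3.38 ± 0.67 (log2) against Sham (edgeR adjusted p = 0.000638), by 2.86 ± 0.67 against Turned Ti and by 2.74 ± 0.67 against SLA Ti. Its relative HSPA12A fell by 1.57 ± 0.60 against Sham (edgeR adjusted p = 0.0433) and by 1.77 ± 0.60 against SLA Ti. Against Sham the fall in HSPA12A did not pass with the rabbit as a block, at -1.59, nor under 6 other settings, which included leaving out Turned Cu 1, at -1.56, Turned Cu 2, at -1.32, Sham 4, at -1.53, the distal pair, at -1.98, or the proximal pair, at -1.53. Against SLA Ti it did not pass without Turned Cu 1, at -1.74, SLA Ti 1, at -1.51, SLA Ti 2, at -1.81, or the distal pair, at -2.16. Of 7 endothelial markers, 4 fell and 2 rose in Turned Cu against Sham. CLEC14A was at 0 in all copper libraries, CDH5 was at 1.44 to 3.12 CPM in Turned Cu against 20.6 to 52.4 in Sham, and PECAM1, which leukocytes also carry, was one of those that rose and was at 447.1 to 947 CPM in Turned Cu against 32.7 to 61.5 in Sham. KDR did not follow CDH5 and CLEC14A, and ranged from 10.5 to 138 CPM in Turned Cu, against 16.7 to 35.5 in Sham. The summed endothelial list stood at 537 to 1093 CPM in Turned Cu, 109.7 to 470.3 in SLA Ti, 92.7 to 147 in Turned Ti and 94.1 to 229 in Sham. PECAM1 made up most of this sum in copper, and without it the other 6 markers summed to 17.2 to 145 CPM in Turned Cu, 32.4 to 104 in SLA Ti, 54.4 to 112 in Turned Ti and 61.4 to 167 in Sham. The part of these markers in the fall of HSPA12B was not tested.

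Among members with no compartment assigned here, DNAJC13 (RME-8, a J protein of endosomes) stood at 58.8, 54.8, 74.6 and 45.4 CPM in Turned Cu, against 24.3, 23.3, 53.9 and 20.3 in SLA Ti, 39.2, 17.8, 29.9 and 26.9 in Turned Ti and 17.0, 30.9, 18.1 and 17.4 in Sham. DNAJC13 rose by 1.49 ± 0.35 against Sham (edgeR adjusted p = 0.00249), by 1.04 ± 0.35 against Turned Ti and by 0.94 ± 0.35 against SLA Ti. Without the distal pair it was 0.95, 0.53 and 0.41 in these comparisons and passed in none, and 15 of 18 other settings ended the call against SLA Ti, leaving out the proximal pair among them (1.05). Against Turned Ti the call was also lost without Turned Cu 1, 2 or 3 (0.89, 1.00 and 0.71) or Turned Ti 2 or 4 (0.86 and 0.91). DNAJC27, a J protein with a Rab-like GTPase domain, stood at 0.861, 0.585, 0.764 and 1.03 CPM in Turned Cu, against 1.55, 1.75, 1.84 and 2.29 in Sham. DNAJC27 fell by 1.19 ± 0.35 against Sham (edgeR adjusted p = 0.0112) and by 1.02 ± 0.35 against Turned Ti, where it did not pass without Turned Ti 3, at -0.88, or with the rabbit as a block, at -1.02.

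HSPA8, HSPB1, BAG3, DNAJB9 and HSPA12B kept their call in all 3 copper comparisons under each of the 18 other settings, which left out each library or pair, changed the scaling, filter or tool, or blocked by rabbit. HSP90AA1 did so too. So did HSPA5, HSPH1, DNAJB14 and DNAJC27 against Sham, and HSPH1 and DNAJA1 against SLA Ti. Scaling moved the common level: with RLE in place of TMM factors the median of all genes in Turned Cu against Sham was -0.21 and that of the members 0.07.

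Between sites without copper no member passed. In Turned Ti against Sham, SLA Ti against Sham and SLA Ti against Turned Ti, 0 of 59 members and 0% of all genes passed edgeR's test, and at an unadjusted p under 0.05 the members numbered 0, 4 and 2, against 2.5%, 14.3% and 9.02% of all genes. DESeq2 also called 0 members in each, and it called 0%, 5.32% and 0.907% of all genes with an adjusted p. In SLA Ti against Sham it gave 37 of the 59 members an adjusted p. The 4 in SLA Ti against Sham were DNAJC16 at 0.67 ± 0.25, DNAJA4 at 1.97 ± 0.89, HSPA4L at -1.12 ± 0.45 and DNAJC27 at -0.69 ± 0.31. SLA Ti 3 and Turned Ti 3, both of rabbit 3, carried the highest HSPA5 and DNAJB9 of the titanium sites.

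Partners of these chaperones outside the list moved in part. Their calls, and those of cell markers, were examined in the main fit only. Of all genes tested, 23.2% rose and 19.6% fell against Sham, 21.1% and 19.6% against Turned Ti, and 15.3% and 15.7% against SLA Ti. Of 9 tested HSP90 cochaperones and related proteins, 3 rose and 1 fell in Turned Cu against Sham, 2 and 1 against Turned Ti, and 2 and 1 against SLA Ti. STIP1 (HOP), which joins HSP70 to HSP90, rose by 0.86 ± 0.22, 1.06 ± 0.22 and 1.02 ± 0.22 in these comparisons. CHORDC1, a cochaperone of HSP90, rose by 1.44 ± 0.41 against Sham, and FKBP5, an HSP90-bound immunophilin induced by glucocorticoids, fell by 1.69 ± 0.45. Of 19 tested genes of ER folding and the unfolded protein response, 6 rose and 1 fell against Sham, 6 and 1 against Turned Ti, and 4 and 0 against SLA Ti. HERPUD1, of ER-associated degradation, rose by 2.37 ± 0.32 against Sham, the sensor ATF6 by 3.79 ± 0.53, the stress factor DDIT3 (CHOP) by 4.77 ± 0.78 and the oxidase ERO1A by 2.21 ± 0.45. The 1 that fell was the sensor EIF2AK3 (PERK), at -1.25 ± 0.34, named after its value was seen. The other 12, HYOU1, the exchange factor of BiP, at -0.06 ± 0.28 among them, did not pass against Sham.

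Of 10 tested genes of mitochondrial folding and proteolysis, 0 passed in any of the 3 copper comparisons by edgeR, and 0 had an unadjusted p under 0.05. Of 11 tested genes of collagen folding in the ER, 0 rose and 9 fell against Sham, with a median of -2.07, and 8 and 7 fell against Turned Ti and SLA Ti. FKBP10, a collagen chaperone, fell by 3.63 ± 0.46 against Sham, and P4HA3, a collagen prolyl hydroxylase, by 4.13 ± 0.56.

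Markers of the cells in the scraped tissue moved beside these genes. In Turned Cu against Sham, 7 of 8 tested osteoblast and bone matrix markers fell and 0 rose, and their summed level was 353.0 to 2675 CPM in Turned Cu, 1700.4 to 12231 in SLA Ti, 6137 to 21679.5 in Turned Ti and 7811 to 20904 in Sham. Of 6 neutrophil markers 4 rose, with sums of 1055 to 2111 CPM in Turned Cu, 397 to 2620.3 in SLA Ti, 289.7 to 956 in Turned Ti and 259 to 490.5 in Sham. Of 6 macrophage markers 3 rose, with sums of 601 to 938 CPM in Turned Cu, 74.7 to 299 in SLA Ti, 84.2 to 258 in Turned Ti and 88.4 to 156 in Sham. Of 5 smooth muscle and pericyte markers 4 fell, with sums of 12.3 to 36.1 CPM in Turned Cu and 132 to 209 in Sham, and of 5 tested plasma cell markers 0 passed, with 19.1 to 142 CPM in Turned Cu and 19.5 to 111 in Sham. Their part in the chaperone differences was not tested.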

How the data were processed

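RNA of the 16 libraries was made, per the labels' protocols, with TRIzol and DNase and read as pairs after a stranded total RNA kit. The submitters' processing notes list STAR 2.7.1a and Cufflinks 2.2.1, without their role. The gene counts deposited by the authors are whole numbers and were treated like estimated counts: 191 values of 0 come with a nonzero RPKM. Deposited RPKM values, per the file headers, served only for levels per length. The authors' deposited fold changes, p-values and transcript tables were not used here.

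Counts were fitted in R 4.3.3 with edgeR 4.0.16: filterByExpr with a minimum count of 10, TMM factors, 1 mean per group over all 16 libraries, and the two-sided quasi-likelihood F test, adjusted by Benjamini and Hochberg over 11617 genes. SE was obtained as the size of the log2 fold change divided by the root of F. Levels in CPM use the TMM-scaled library. Ratios within a library used counts plus 0.5 and an exact permutation test (SciPy 1.17.1). No fit used a replicate block except as an alternative. The alternatives were RLE scaling, DESeq2 1.42.0, no filter, dropping ribosomal and mitochondrial genome genes, blocking by rabbit (also with the end of the bone), only the 2 groups compared, and leaving out each library. Leaving out each copper pair or the 3 libraries richest in ribosomal RNA, and naming HSP90AA1 by its description, were chosen after seeing the data. The test was also run on simulated data in which few genes changed, unlike the copper comparisons. Scaling under broad shifts was therefore not checked by it.

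The members, compartments, lists and the rule for named genes (every member, up to 4 genes of smallest p per list of partners and comparison, and all cell markers) were chosen with earlier results of these data known. Members without a symbol, such as HSPA1A, HSPA1B, DNAJB1, DNAJA3 and BAG1, were not analysed here, and a planned ratio of DNAJA3 to DNAJA1 was not made. Replicate numbers are rabbits, so they pair the samples. Deviations of libraries of the same rabbit from their group means correlated by -0.17 to 0.32 (median 0.11, 24 pairs), against a median of -0.02 over 72 other pairs. Replicates differed beyond counting noise (chi-square over its degrees of freedom 44.1 to 1150.4), and 0 pairs of libraries were identical. Total counts were 8539984 to 20406474. Counts, floors and intervals cover counting error only. Gene models of 22 tested members overlap another gene, 4 on the same strand. HSPA8, HSP90AB1, HSPD1, HSPE1 and CCT genes have processed copies in mammalian genomes, and the treatment of shared reads is not given in these sources.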

Additional observations from a re-analysis of the deposited data

Results flagged for a closer look

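Within a group of 4, a library was looked at again when its gap to the nearest other, on the scale of log2(CPM + 0.5), took more of the group's range than Dixon's 95% critical value. Of 112 groups (28 genes in 4 groups) 9 were picked out, and chance picks about 1 in 20. In Turned Cu, replicate 2 was the lowest for HSP90AA1, at 821 CPM, and for BAG3, at 26.3 CPM. In SLA Ti, DNAJB14 was highest in replicate 3, at 15.3 CPM, and HSPD1 was lowest in replicate 1, at 11.6 CPM. In Turned Ti, replicate 3 was the highest for HSPD1, at 33.2 CPM, and for DNAJC27, at 2.12 CPM. In Sham, replicate 2, the library with 65.3% ribosomal RNA, was the lowest for HSP90AB1, at 149 CPM, and HSF1, at 2.42 CPM, and the highest for DNAJC13, at 30.9 CPM.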

How the results depend on the processing

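In Turned Cu against Turned Ti, 19 members passed, but 12 did when only these 2 groups were fitted and 11 without Turned Cu 1 and 3. Of all 11617 genes tested, 2451 rose and 2277 fell in the main fit. With only the 2 groups 1882 rose and 1914 fell of 10078, and without Turned Cu 1 and 3, 1314 and 1966 of 12375. The cause was not tested. Leaving out 1 library gave 15 to 21 members against Sham, 14 to 18 against Turned Ti, 10 to 15 against SLA Ti and 0 in the titanium comparisons. In these fits 11851 to 12047 genes were tested. Of all genes, 2103 to 2484 rose and 2162 to 2706 fell against Sham. Against Turned Ti 1866 to 2258 rose and 1943 to 2668 fell, and against SLA Ti 916 to 1824 and 1465 to 2225. In the titanium comparisons 0 to 197 rose and 0 to 1 fell. With the rabbit as replicate block the numbers were 18, 15 and 14, and besides the calls given with the genes above the block ended that of HSPA4 against Turned Ti, at 0.66, and changed no other member's call. Of all 11617 genes, 2643, 2391 and 1859 rose with the block and 2232, 2241 and 1801 fell. Without Turned Cu 2 and 4, genes that had not passed did so in the other direction: against Sham CCT2 at -1.48, HSPD1 at -1.20, CCT8 at -1.00 and CCT7 at -0.86, and against Turned Ti HSPE1 at -1.45, CCT2 at -1.41, HSPD1 at -1.12 and CCT8 at -1.04. No direction is read for values that passed in neither setting. DESeq2 gave 21, 22 and 14 members. Of 11577 genes with an adjusted p it called 2541, 2379 and 1766 higher and 2974, 2896 and 2341 lower. Coding counts were as low as 965804 in a library. Genes such as DNAJC19, HSPB8 and HSF4 had SEs near 1 on the log2 scale against Sham, so differences of that size were not detectable. The cause of these wide SEs was not tested.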

Other observations

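HSPB3 and HSPB7, small heat shock proteins of striated muscle, were seen almost only in one titanium library. HSPB7 stood at 0.485 CPM and HSPB3 at 0.194 CPM in Turned Ti 1. HSPB6 was at 0.517 CPM there and at 0.344 CPM in Turned Cu 4, and HSPB8 reached 4.40 CPM in Turned Ti 1. In the same library the skeletal muscle genes MYH1 and NEB stood at 90.4 and 85.3 CPM, and ACTA1 at 36.7 CPM. In the other 15 libraries HSPB3 was at 0, HSPB7 at most 0.0804 CPM and MYH1 at most 0.287 CPM. NEB, however, reached 16.6 CPM in Turned Cu 3 and 3.50 CPM in SLA Ti 3, and ACTA1 1.27 CPM in Turned Cu 3. HSPB1 was not raised in Turned Ti 1, at 12.9 CPM against 8.37 to 13.9 CPM in the other Turned Ti libraries.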
